A study of Rattus norvegicus with 4 samples.

Results

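Cell cycle and DNA replication genes were followed on 4 microarrays of primary rat astrocytes. The set held 40 genes, and a gene was counted as measured when a probe carried its symbol alone. This held for 37 of the 40, out of 18166 genes measured in all. Rrm1, Cenpe and Birc5 had no such probe and are not analysed here. The set was split by role into 14 S-phase genes (13 measured), 21 mitotic genes (19 measured) and 5 regulators of the G1 phase (all measured). For a gene with several probes, that of the greatest average signal was used. The list was chosen by known role and not by these values, although earlier results of the same arrays were known when it was drawn up.

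The astrocytes, the main glial cells of the brain, came from the cerebral cortex of Sprague-Dawley rats aged 1 day. Before use the cultures spent 2 days without serum, a step meant to remove microglia and meningeal cells. Every culture was transfected with an siRNA. The untreated culture received a control siRNA alone. The second culture received the control siRNA and the lymphocyte cytokine interferon-γ (IFN-γ), and the third the control siRNA, IFN-γ and a compound that the labels call GW. The last culture received an siRNA against SHP, the orphan nuclear receptor small heterodimer partner, with the same IFN-γ and GW. Treatment lasted 3 h, and no dose, number of pups or separate preparation is given in the sources used here. Each condition had 1 array. No difference given here could be checked against replicates, and none carries a p-value or error. They describe these 4 cultures, and the number of arrays limits the precision.

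A dividing cell copies its DNA in S phase and separates the copies in mitosis. Entry into S phase is set in G1, where D-type cyclins activate Cdk4 and Cdk6, these kinases phosphorylate the retinoblastoma protein, and E2F factors are freed to switch on the genes for DNA synthesis. The genes for mitosis are switched on later, in G2, through the MuvB complex with B-Myb and FoxM1. When cells leave the cycle, the DREAM complex represses both sets. Cortical astrocytes of newborn rodents divide in culture and slow down without serum. The mRNA of these genes in a whole culture comes from every dividing cell type in it. In such bulk RNA, fewer dividing cells and less mRNA per dividing cell cannot be told apart.

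The 4 arrays had median log2 signals between 5.79 and 5.87. Genes whose highest value reached 5.83, the median of the whole table, were kept for comparison, and 11790 passed. All 37 measured cell cycle genes passed. Of them Cdc6 lay below 5.83 on 3 arrays, Bub1b on 2 and Bub1 on 1, and how far such values stand above background is not known. The gene for SHP, Nr0b2, was at 5.33, 5.14 and 5.20 with control siRNA and at 3.45 with SHP siRNA, all below 5.83. All 10 measured astrocyte markers, among them Gfap at 12.03 in the untreated culture, passed the filter. So did all 18 measured microglia markers, with Cd68 at 10.82 and Fcer1g at 12.05 in the untreated culture, so the RNA was not of astrocytes alone.

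The mitotic genes were lower with IFN-γ than without it, and higher with SHP siRNA than with control siRNA. With IFN-γ, 19 of 19 mitotic genes and 11 of 13 S-phase genes lay below the untreated culture, where 59.8% of all genes did. The 19 became 18 after quantile normalization or cyclic loess, since Ccnb1, at -0.023, turned to 0.0057 or 0.0034. The median log2 difference was -0.29 for mitotic genes and -0.17 for S-phase genes, against -0.04 for all genes. The differences were small in size. None of the 37 genes reached 1.5-fold (0 of 37), a size that 1.59% of all genes reached downward and 3.02% upward. At 1.25-fold, a threshold added after the data were seen, 7 of the 37 were lower against 6.22% of all genes, and 1, Myc, was higher against 6.4%.

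Adding GW to IFN-γ left the set with no common direction. Of 19 mitotic genes 7 lay above the IFN-γ culture and 12 below, and of 13 S-phase genes 4 lay above and 9 below. Among all genes 42.1% lay above and 57.8% below. The medians were -0.06 for mitotic genes, -0.01 for S-phase genes and -0.05 for all genes. When each array was centred on its median, 9 of 19 mitotic genes, 6 of 13 S-phase genes and 45.4% of all genes lay below, and the medians of the lists turned to 0.027 and 0.068. Only Myc reached 1.5-fold, 1 of 37 upward against 2.82% of all genes, with 0 of 37 downward against 4.97%.

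SHP siRNA, compared with control siRNA under the same IFN-γ and GW, went with higher mitotic genes. Of 19 mitotic genes 18 lay above 0, against 51.5% of all genes, with Aurka the exception. Their median was 0.33 and that of all genes 0.01. Of the S-phase genes 10 of 13 lay above 0, with a median of 0.06. That median was 0.12 with the mean of each gene's probes, and the mean over the list was 0.13. At 1.5-fold 3 genes of the 37 were higher, Top2a, Ccna2 and Ccne2, against 1.42% of all genes, and 0 were lower against 1.2%. At 1.25-fold 11 of 19 mitotic genes and 3 of 13 S-phase genes were higher, against 6.56% of all genes. Whether the mitotic and S-phase differences are unequal beyond the error of single arrays was not tested.

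**Figure D1:**
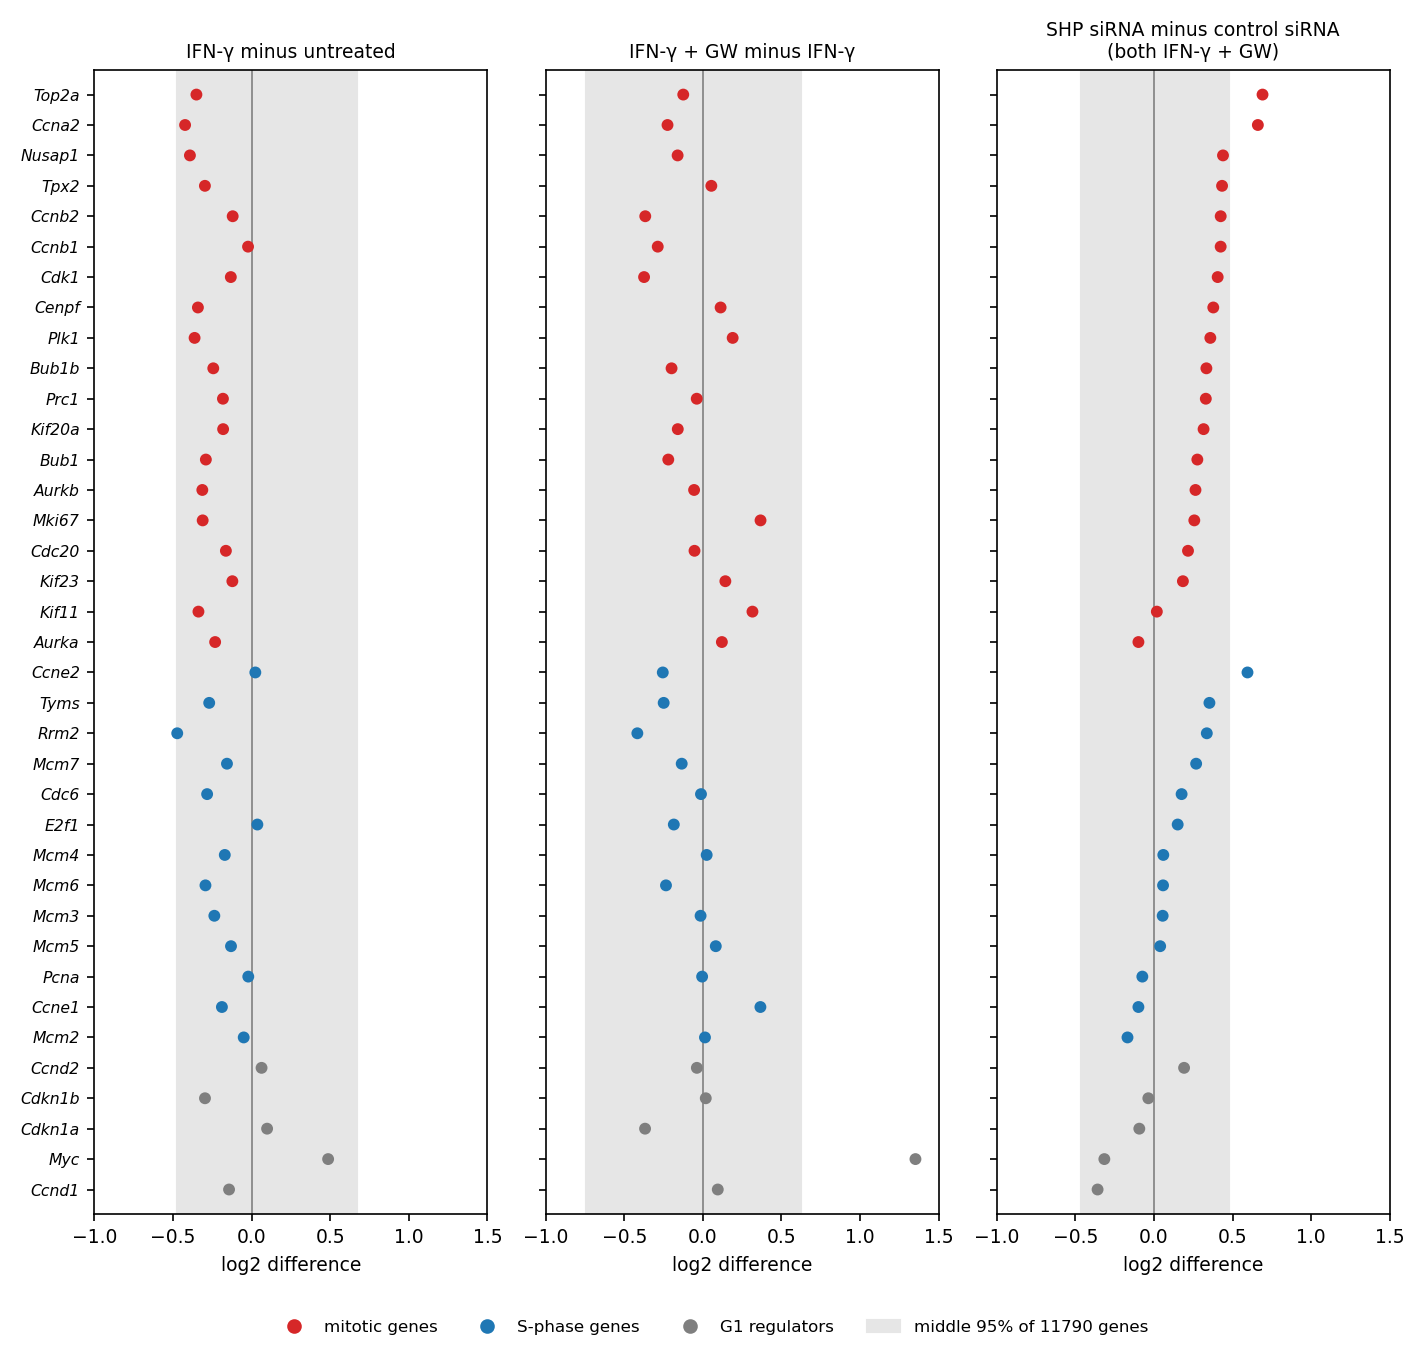
Log2 difference of each of the 37 measured genes (rows) in the 3 comparisons (panels), each between 2 single arrays, coloured by role; the grey band holds the middle 95% of 11790 genes. Mitotic genes lie left of 0 with IFN-γ (Ccnb1 turns sign after quantile normalization or cyclic loess) and, apart from Aurka, right of 0 with SHP siRNA, while Myc with GW, at 1.35, and Top2a, Ccna2 and Ccne2 with SHP siRNA, from 0.60 to 0.69, lie outside the band.

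The cyclins and the kinase that drive entry into mitosis came out lowest in the culture with IFN-γ and GW. Cdk1, the mitotic cyclin-dependent kinase, had log2 signals of 7.22 untreated, 7.09 with IFN-γ, 6.71 with IFN-γ and GW, and 7.12 with SHP siRNA. Ccnb1, its cyclin B1 partner, had 7.08, 7.06, 6.77 and 7.20 in the same order. Ccna2, cyclin A2, which acts in S phase and G2, had 7.73, 7.30, 7.08 and 7.74. For all 3 genes the culture with IFN-γ and GW was the lowest, and the untreated and SHP siRNA cultures were the highest. The SHP siRNA difference was 0.41 for Cdk1, 0.42 for Ccnb1 and 0.66 for Ccna2, the last a 1.58-fold difference. Ccnb2, cyclin B2, had 9.26, 9.13, 8.77 and 9.19. A second Ccnb2 probe had 7.92, 7.58, 7.14 and 7.85, so both probes were lowest with IFN-γ and GW, with SHP siRNA differences of 0.42 and 0.72.

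Mki67 and Top2a were lower with IFN-γ and highest with SHP siRNA, whereas Pcna and Mcm2, described with the S-phase genes, were lowest with SHP siRNA. Mki67, which encodes the Ki-67 protein that coats mitotic chromosomes, had 9.40 untreated, 9.09 with IFN-γ, 9.46 with IFN-γ and GW, and 9.71 with SHP siRNA. Its value with GW was thus near the untreated level, unlike the cyclins above. Top2a, the topoisomerase that untangles sister chromatids, had 8.61, 8.26, 8.13 and 8.82. Its SHP siRNA difference of 0.69, or 1.61-fold, was the highest of the 37 genes and higher than that of 99.2% of all genes.

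Mitotic kinase and checkpoint genes were lower with IFN-γ and, apart from Aurka, higher with SHP siRNA. Plk1, the polo-like kinase of spindle assembly, had 8.82 untreated, 8.46 with IFN-γ, 8.65 with IFN-γ and GW, and 9.01 with SHP siRNA. Aurkb, the kinase of the chromosomal passenger complex, had 7.70, 7.38, 7.33 and 7.59. Aurka, the centrosomal aurora kinase, had 7.20, 6.97, 7.09 and 6.99, and its SHP siRNA difference of -0.10 was the sole negative value among mitotic genes. The spindle checkpoint kinase genes Bub1 and Bub1b were at -0.29 and -0.24 with IFN-γ and at 0.28 and 0.33 with SHP siRNA, on levels near or below 5.83 in the treated cultures. Cdc20, which activates the anaphase-promoting complex, had 7.52, 7.36, 7.30 and 7.52, so the untreated and SHP siRNA cultures stood close together.

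Genes of the spindle and of cytokinesis split in their response to GW. Nusap1, a microtubule-bundling protein, had 7.65 untreated, 7.25 with IFN-γ, 7.09 with IFN-γ and GW, and 7.53 with SHP siRNA. Tpx2, which activates Aurora A on the spindle, had 7.60, 7.30, 7.36 and 7.79, and Cenpf, a kinetochore protein, had 7.51, 7.17, 7.28 and 7.66. Set against the IFN-γ culture, GW went with slightly higher Tpx2 and Cenpf and lower Nusap1. Kif11, the motor that pushes spindle poles apart, had 7.25, 6.91, 7.23 and 7.25, so it was low in the IFN-γ culture alone. The cytokinesis genes Kif20a, Kif23 and Prc1 were at -0.18, -0.12 and -0.18 with IFN-γ and at 0.32, 0.18 and 0.33 with SHP siRNA. Over the 19 mitotic genes, 17 were higher in the untreated culture than in both control siRNA cultures with IFN-γ, against 44.2% of all genes, and 12 had their lowest value with IFN-γ and GW, against 32% of all genes.

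**Figure D2:**
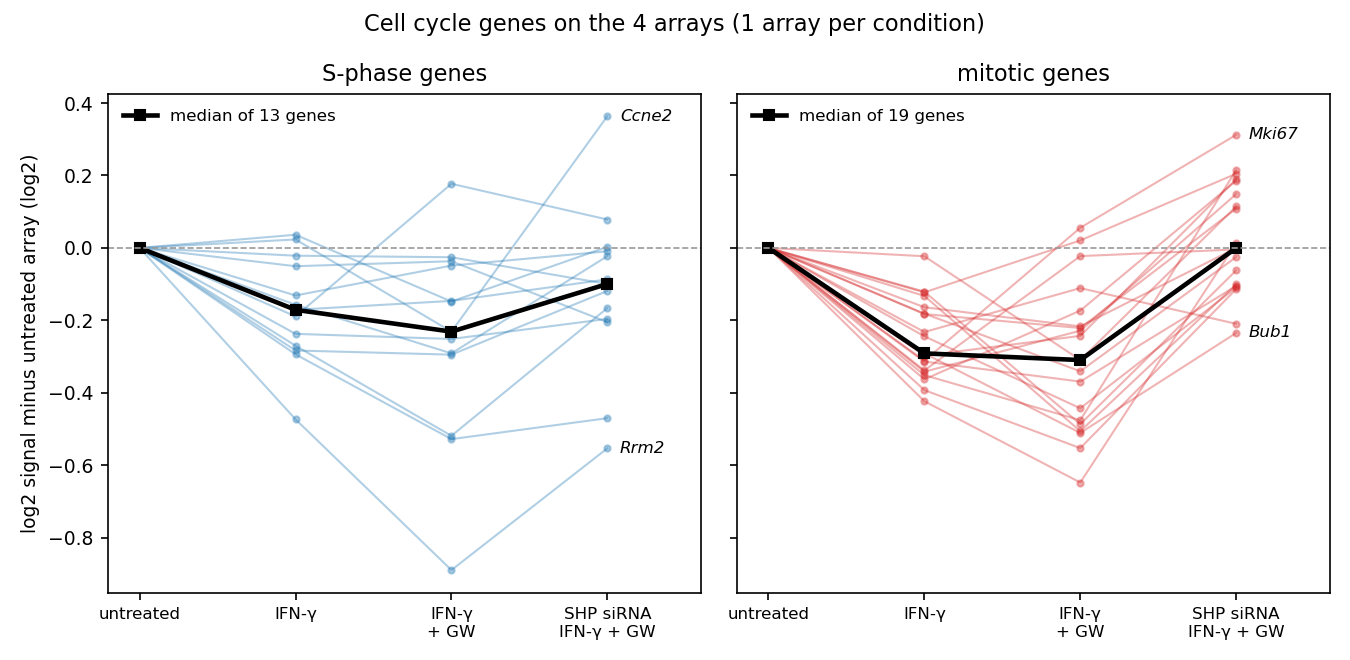
Log2 signal on each of the 4 arrays minus the untreated array, for 13 S-phase genes (left) and 19 mitotic genes (right); thin lines are genes, 1 probe each, and the black line is their median. The mitotic median is at -0.29 with IFN-γ, -0.31 with IFN-γ and GW and -0.0001 with SHP siRNA, where the S-phase median is at -0.10.

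Mitotic genes are known to share 2 promoter elements, the cell cycle homology region (CHR), bound by MuvB, and CCAAT boxes, bound by NF-Y. The 200 bases before the RefSeq start site, of assembly GRCr8, are shown for the 5 mitotic genes with the highest SHP siRNA differences among those with a promoter entry, so that the counted letters can be seen in place. Capitals mark CHR letters (either TTTGAA or else the variant form TTTAAA), the CCAAT box and E2F letters, each searched on both strands, so that the reverse complements also count. The form TTTAAA is its own reverse complement. The E2F search took the string TTCCCGC, the related string TTGGCGC, the third string TTCGCGC and the last string TTGCCGC. Positions are chr10:84473094-84473293 (minus strand) for Top2a, chr3:127057095-127057294 (plus) for Nusap1, chr8:79981659-79981858 (minus) for Ccnb2, chr2:33655226-33655425 (minus) for Ccnb1 and chr20:19265093-19265292 (plus) for Cdk1.
Top2a: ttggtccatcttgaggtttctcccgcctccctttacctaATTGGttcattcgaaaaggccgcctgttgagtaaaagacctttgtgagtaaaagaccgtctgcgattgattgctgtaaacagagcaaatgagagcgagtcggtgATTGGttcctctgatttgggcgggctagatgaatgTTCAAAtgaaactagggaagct
Nusap1: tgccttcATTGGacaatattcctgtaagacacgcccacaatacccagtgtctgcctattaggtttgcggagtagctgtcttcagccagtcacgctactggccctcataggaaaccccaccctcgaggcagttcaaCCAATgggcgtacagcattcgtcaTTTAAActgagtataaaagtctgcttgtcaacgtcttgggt
Ccnb2: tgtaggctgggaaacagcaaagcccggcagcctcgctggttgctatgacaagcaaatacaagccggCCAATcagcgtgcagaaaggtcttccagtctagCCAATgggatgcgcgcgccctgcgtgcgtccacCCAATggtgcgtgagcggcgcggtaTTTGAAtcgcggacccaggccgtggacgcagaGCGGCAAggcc
Ccnb1: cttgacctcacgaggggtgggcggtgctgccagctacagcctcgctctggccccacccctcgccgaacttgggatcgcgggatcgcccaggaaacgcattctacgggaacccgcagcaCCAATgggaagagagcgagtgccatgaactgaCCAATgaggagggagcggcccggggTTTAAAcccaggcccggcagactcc
Cdk1: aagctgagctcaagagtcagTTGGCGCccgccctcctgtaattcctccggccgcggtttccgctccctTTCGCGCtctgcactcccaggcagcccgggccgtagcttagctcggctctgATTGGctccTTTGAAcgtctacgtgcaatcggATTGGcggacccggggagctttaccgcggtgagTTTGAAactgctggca

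Of 40 genes, 29 matched an entry of the promoter table, 18 of them among the 21 mitotic genes and 9 among the 14 S-phase genes, genes without a probe included. CHR letters were present in 17 of these 18, against 18.7% of 19005 protein-coding promoters, and CCAAT in 14 of 18, against 30.6%. Both together were in 14 of 18, or 77.8%, against 5.86% of all. Among other mitotic genes CHR letters were in 24 of 43, or 55.8%, and both together in 17 of 43, or 39.5%. In Ccnb2 the 3 CCAAT boxes begin at positions -134, -101 and -68 and the CHR at -43. E2F letters were in 3 of the 18 mitotic promoters, against 8.26% of all promoters, namely Ccnb2, Cdk1 and Mki67. Genes outside the cell cycle lists give the comparison for the expression values. The 395 genes past the filter that hold CHR and CCAAT letters and belong to none of the lists had a median of -0.06 with IFN-γ and 0.02 with SHP siRNA, while 5767 genes with neither had -0.04 and 0.01. Of the other mitotic genes past the filter, 17 with both had medians of -0.25 and 0.21, and 8 with neither had -0.18 and 0.17. A match is a string of letters and says nothing of binding.

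Most S-phase genes were lower with IFN-γ as well, with Rrm2 the lowest of them at -0.47, followed by Mcm6 at -0.29, Cdc6 at -0.28 and Tyms at -0.27. Rrm2, the small subunit of ribonucleotide reductase, which makes deoxynucleotides, had log2 signals of 8.99 untreated, 8.52 with IFN-γ, 8.10 with IFN-γ and GW, and 8.44 with SHP siRNA. Its difference with IFN-γ was the lowest of the 37 genes and lay at percentile 2.55 of all genes. Between the untreated culture and that with IFN-γ and GW it was -0.89, or 1.85-fold lower. A second Rrm2 probe had 6.35, 5.85, 5.74 and 5.97, in the same order of cultures. Tyms, thymidylate synthase, had 8.89, 8.62, 8.37 and 8.73. Both genes were lowest with IFN-γ and GW, and both were below the untreated level with SHP siRNA.

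The helicase that opens replication origins varied by subunit. Mcm6 had 7.22 untreated, 6.93 with IFN-γ, 6.69 with IFN-γ and GW, and 6.75 with SHP siRNA, so all 3 treated cultures were lower. Mcm7 had 8.0005, 7.84, 7.71 and 7.98, with SHP siRNA close to untreated. Mcm3, Mcm4 and Mcm5 were at -0.24, -0.17 and -0.13 with IFN-γ and between 0.04 and 0.06 with SHP siRNA. A second Mcm3 probe was at 0.03 with IFN-γ and 0.19 with SHP siRNA, so the Mcm3 probes disagreed in sign with IFN-γ. Mcm2 had 7.79, 7.74, 7.75 and 7.58, lowest with SHP siRNA. Cdc6, which loads the helicase, was at -0.28 with IFN-γ and 0.18 with SHP siRNA, on signals between 5.64 and 5.93. Pcna, the sliding clamp of the replication fork, had 9.45, 9.43, 9.42 and 9.35 and was nearly level on the 4 arrays, with signs in the first 2 comparisons that turned with the scaling.

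The E-type cyclins and E2f1, which open S phase, did not move together. Ccne1, cyclin E1, had 6.06 untreated, 5.87 with IFN-γ, 6.24 with IFN-γ and GW, and 6.14 with SHP siRNA. Ccne2, cyclin E2, had 6.24, 6.27, 6.01 and 6.61, highest with SHP siRNA by 0.60, or 1.51-fold, over the control siRNA. Thus Ccne1 was highest and Ccne2 lowest in the same culture. E2f1, a transcription factor for S-phase genes, had 6.0001, 6.04, 5.85 and 6.003, so its values were nearly level.

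E2F factors are known to bind promoters of S-phase genes. The same 200-base windows are shown for the 3 S-phase genes with a promoter entry that differed most between the untreated culture and that with IFN-γ and GW. They lie at chr13:42404353-42404552 (minus strand) for Mcm6, chr9:120776084-120776283 (minus) for Tyms and chr12:22163179-22163378 (minus) for Mcm7, with capitals as above.
Mcm6: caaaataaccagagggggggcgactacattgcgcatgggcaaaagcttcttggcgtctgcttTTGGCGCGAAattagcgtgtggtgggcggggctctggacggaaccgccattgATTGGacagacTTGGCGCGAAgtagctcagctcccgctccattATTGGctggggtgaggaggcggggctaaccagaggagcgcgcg
Tyms: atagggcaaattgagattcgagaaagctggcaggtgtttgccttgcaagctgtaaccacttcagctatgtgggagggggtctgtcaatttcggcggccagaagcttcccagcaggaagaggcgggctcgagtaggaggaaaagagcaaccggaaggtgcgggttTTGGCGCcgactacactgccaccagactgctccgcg
Mcm7: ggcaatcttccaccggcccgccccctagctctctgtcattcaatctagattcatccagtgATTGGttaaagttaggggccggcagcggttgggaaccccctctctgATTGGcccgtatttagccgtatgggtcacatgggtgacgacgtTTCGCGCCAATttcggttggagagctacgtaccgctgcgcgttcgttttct

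E2F letters were in 6 of 9 S-phase promoters, against the 8.26% of all promoters. CCAAT was in 5 of 9, against 30.6% of all promoters. CHR letters were in 2 of 9, against 18.7%, and CHR with CCAAT in 0 of 9, against 5.86%. Of the other replication genes 9 of 36, or 25%, held E2F letters, as did 25.9% of the other G1 genes and 18.6% of the other mitotic genes. In Mcm6 each of the 2 stretches of E2F letters holds overlapping matches on opposite strands, which makes 4 matches. In Mcm7 the E2F letters overlap a CCAAT box.

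Among G1 regulators Myc stood apart from the rest of the set. Myc, a transcription factor for growth and an immediate early gene, had log2 signals of 8.31 untreated, 8.80 with IFN-γ, 10.15 with IFN-γ and GW, and 9.84 with SHP siRNA. Adding GW to IFN-γ went with a 2.55-fold difference in Myc, above that of 99.5% of all genes, and the level was then 3.58-fold over untreated. With SHP siRNA it was lower by 0.32 and still 2.88-fold above untreated. So Myc was highest in the culture where most mitotic genes were lowest.

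The D-type cyclins and the Cdk inhibitors varied less. Ccnd1, cyclin D1, had 8.29, 8.15, 8.24 and 7.89, lowest with SHP siRNA, where its difference of -0.36 was the lowest of the 37 genes. It was the sole gene of the 37 at least 1.25-fold lower there, against 5.96% of all genes. Ccnd2, cyclin D2, had 10.09, 10.16, 10.12 and 10.31. Cdkn1a, which encodes the p53-induced inhibitor p21, had 11.01, 11.11, 10.74 and 10.65, lower in both GW cultures. Cdkn1b, which encodes the inhibitor p27, had 10.03, 9.73, 9.75 and 9.71, lower in all 3 treated cultures.

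With IFN-γ, some other genes of the G1 network reached 1.5-fold, which none of the 37 did. The list held 35 genes, of which 29 passed the filter. With IFN-γ 3 of 29 were at least 1.5-fold higher, against 3.02% of all genes, and 2 of 29 were lower, against 1.59%. Mxd1, an antagonist that competes with Myc for Max, had 7.72 untreated, 9.41 with IFN-γ, 9.91 with IFN-γ and GW, and 9.93 with SHP siRNA. It was thus high in all 3 treated cultures. The other higher genes were Cdkn2b, the Cdk4 and Cdk6 inhibitor p15, at 0.91, and Wee1, which restrains Cdk1, at 0.76. The lower genes were Skp2, a ubiquitin ligase subunit that degrades p27, at -0.75, and Cdc25a, the phosphatase that activates Cdk2, at -0.63, the last named after its value was seen.

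With GW the Myc antagonist Mnt was at 1.07 and Cdkn2b at -0.74 (log2 differences). Mnt had 7.96, 7.44, 8.51 and 8.37, so it was low with IFN-γ alone. Cdkn2b had 7.48, 8.39, 7.65 and 7.78, so it was high with IFN-γ alone. E2f7, an atypical E2F that represses S-phase genes, had 7.14, 7.19, 7.84 and 8.45. It was highest with SHP siRNA, at 0.61 over the control siRNA, and was the 1 gene of the 29 to reach 1.5-fold there, against 1.42% of all genes. Cdkn2c, the inhibitor p18, had 8.63, 8.19, 7.68 and 7.99, and so was lowest with IFN-γ and GW, as the mitotic cyclins were.

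**Figure D3:**
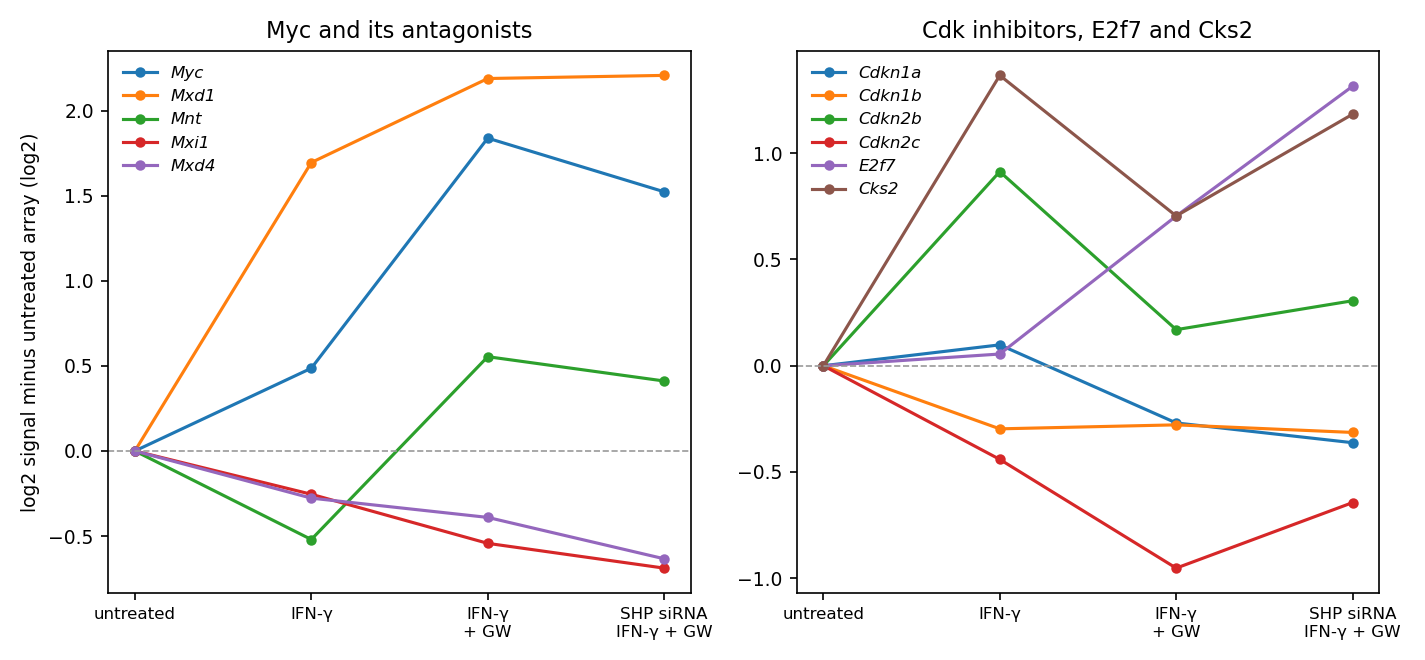
Log2 signal minus the untreated array, 1 array per condition, for Myc and 4 of its antagonists (left) and for 4 Cdk inhibitors with E2f7 and Cks2 (right); lines join the arrays of a gene. Mxd1 and Myc reach 2.19 and 1.84 with IFN-γ and GW, and E2f7 is highest with SHP siRNA at 1.32.

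Of 20 p53-responsive genes 13 passed the filter, with medians of -0.12, -0.15 and -0.09 in the 3 comparisons. Single members differed widely. Gdf15, a stress cytokine, was at 1.53 with IFN-γ and a further 1.89 with GW. The polo-like kinase gene Plk2 was at 1.64 with IFN-γ, and Plk3 at 0.67 with IFN-γ, 1.16 with GW and -0.99 with SHP siRNA. Sesn1, a p53-induced stress gene, was at -0.92 with IFN-γ. Mdm2, the ligase that degrades p53, was at 0.71 with GW. Eda2r was at -0.83 with GW. The list's summed signal was 118%, 148% and 147% of untreated in the 3 treated cultures. That sum includes Gdf15 and Plk2, which were above untreated by 3.42 and 1.48 with IFN-γ and GW. By sign the list was close to all genes. Of the 13 genes 8 lay below untreated with IFN-γ, against 59.8% of all genes. With IFN-γ and GW 8 of 13 lay below, against 60.3%, and with SHP siRNA 8 of 13, against 59.2%. At 1.5-fold 3 of 13 were higher with IFN-γ, against 3.02% of all genes, and 1 was lower, against 1.59%. With IFN-γ and GW, 4 of 13 were at least 1.5-fold above untreated and 3 below, against 466 and 781 of 11790 genes.

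Mitotic genes outside the set mostly had the same signs, with a smaller median with SHP siRNA. The list held 50 other genes, of which 44 passed the filter. With IFN-γ 41 of 44 lay below 0, against 59.8% of all genes, with a median of -0.23. With SHP siRNA 40 of 44 lay above 0, against 51.5% of all genes, with a median of 0.19. At 1.25-fold, the threshold added after the data were seen, 14 of 44 were higher, against 6.56% of all genes. The highest with SHP siRNA were Ect2, which starts the cleavage furrow, at 0.66, Aspm, a spindle pole protein, at 0.64, the checkpoint kinase gene Ttk at 0.54 and the kinetochore gene Nuf2 at 0.49. Ckap2 was lowest with IFN-γ at -0.59.

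With IFN-γ, Cks2 went the other way from its list. This gene, whose protein binds Cdk1, had 7.11 untreated, 8.48 with IFN-γ, 7.82 with IFN-γ and GW, and 8.29 with SHP siRNA. All 3 treated cultures were higher, and the IFN-γ difference of 1.37 was above 99.1% of all genes. It was the 1 gene of the 44 at least 2-fold higher with IFN-γ, against 1.61% of all genes. When GW was added Cks2 was at -0.66, and with SHP siRNA at 0.48. Those signs were the same as for the list medians of -0.05 and 0.19.

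Other replication genes had small differences. Of 40, 31 passed the filter. With IFN-γ 25 of 31 lay below 0, against 59.8% of all genes, with a median of -0.11 and the mismatch repair gene Msh6 lowest at -0.56. With GW the median was -0.05, and the primase gene Prim1 was at -0.57. With SHP siRNA 21 of 31 lay above 0, against 51.5% of all genes, with a median of 0.04, and Rfc4, a subunit of the clamp loader, was lowest at -0.57.

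The IFN-γ and SHP siRNA differences use separate pairs of arrays, and no array is common to both. Of 19 mitotic genes 18 lay below 0 in the first and above 0 in the second, against 29.9% of all genes. The same held for 37 of 44 other mitotic genes, 8 of 13 S-phase genes and 0 of 5 G1 regulators. The genes were chosen with earlier results of these arrays known, so the counts describe the arrays and are not independent support.

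**Figure D4:**
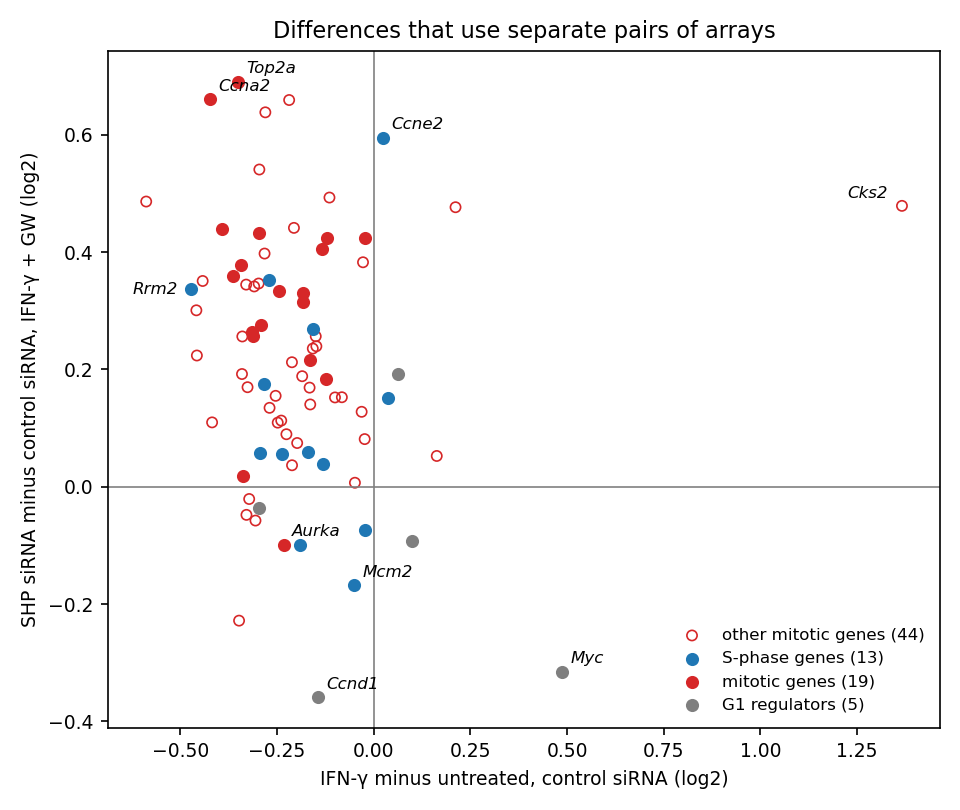
SHP siRNA minus control siRNA under IFN-γ and GW (vertical, log2) against IFN-γ minus untreated (horizontal, log2), with 1 point per gene and no array in common between the axes. Most mitotic points fall to the upper left, Myc lies at 0.49 and -0.32, and Cks2 at 1.37 and 0.48.

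By their median difference, the mitotic genes with SHP siRNA, IFN-γ and GW stood near their level in the untreated culture, which had control siRNA. No culture received SHP siRNA without IFN-γ and GW. A difference present without treatment and a changed response to treatment thus cannot be told apart. With control siRNA, IFN-γ and GW, 17 of 19 lay below untreated, against 60.3% of all genes, with a median of -0.31. With SHP siRNA and the same treatment 10 of 19 lay below, against 59.2% of all genes, with a median of -0.0001. Single genes there ranged from -0.23 for Bub1 to 0.31 for Mki67. These comparisons share the untreated array. For S-phase genes the medians were -0.23 and -0.10, and for all genes -0.08 and -0.07. The summed linear signal of the 19 mitotic genes was 83.8% of untreated with IFN-γ, 83.4% with IFN-γ and GW, and 106% with SHP siRNA.

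Markers of other cells moved beside these genes. Of 18 microglia markers 17 were lower with IFN-γ, against 59.8% of all genes, with a median of -0.47. When GW was added 16 were lower, against 57.8% of all genes, with a median of -0.47. With SHP siRNA 15 were higher, against 51.5% of all genes, with a median of 0.17. Their summed signal was 77.3%, 53.8% and 60.2% of untreated in the 3 treated cultures. Below 0 with IFN-γ and above 0 with SHP siRNA were 14 of the 18, against 29.9% of all genes. The lowest microglia markers with IFN-γ were Cx3cr1 at -1.23 and Gpr34 at -1.21, and with GW Tyrobp at -1.22 and Ptprc at -1.16. Cx3cr1 was at 0.68 with GW and Ptprc at 0.23 with IFN-γ, so both turned sign. Gpr34 was at -0.19 with GW and Tyrobp at -0.33 with IFN-γ. The part of microglia in the mitotic differences was not tested.

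Markers of meningeal cells and fibroblasts, with 9 of 12 past the filter and Lum, Dcn and Slc6a13 below it on all 4 arrays, had medians of 0.06, -0.10 and 0.48. The highest with SHP siRNA were Aldh1a2 at 1.11, Col3a1 at 0.71, Igf2 at 0.67 and Foxc1 at 0.49. Their summed signal ranged from 94.8% to 108% of untreated. Astrocyte markers had medians of 0.04, -0.21 and 0.22, with Aqp4 at 0.53 with IFN-γ and 0.71 with SHP siRNA, and sums from 95.6% to 113% of untreated. Oligodendrocyte lineage markers, with 8 of 10 past the filter, had medians of 0.13, -0.12 and 0.11 and sums from 91% to 110%, with Pdgfra at 0.43, -0.85 and 0.72. Of 10 neuron markers 4 passed the filter, while Tubb3, Snap25, Syt1, Dcx, Nefl and Slc17a6 were below it on all 4 arrays, and the medians of the 4 were 0.13, 0.13 and -0.05. Their summed signal, from 87.4% to 96.5% of untreated, followed Stmn2, at 12.04 in the untreated culture and lower in the treated cultures, while Gad1, Map2 and Rbfox3 were above untreated in all 3. Meningeal, astrocyte and oligodendrocyte lineage medians were thus above 0 with SHP siRNA, as the mitotic median was, and their part in it was not tested.

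**Figure D5:**
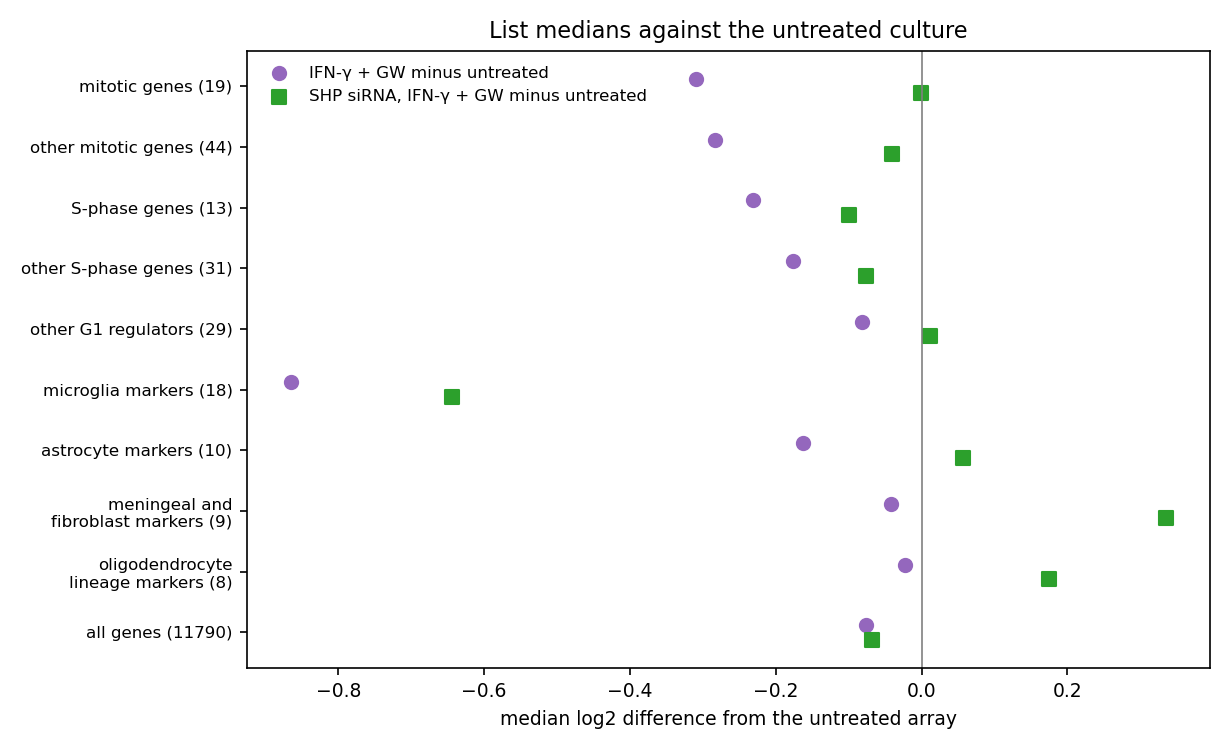
Median log2 difference from the untreated array for gene lists (rows, with the number of genes past the filter), with control siRNA (circles) or SHP siRNA (squares) under IFN-γ and GW, 1 array each. The mitotic median goes from -0.31 to -0.0001 and the microglia median from -0.86 to -0.64.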

How the data were processed

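Biotin-labelled cDNA of 4 cultures was hybridised to GeneChip arrays, 1 per group. The values are the authors' deposited table, taken to be on a log2 scale from their range, 1.14 to 13.4. The sources used here do not give the log base, background correction or normalization. Of 29489 probes, 18511 have 1 gene symbol, 575 several and 10403 none. Symbols were updated by Entrez identifier through RefSeq (GRCr8), where 18394 were found. A gene passed the filter when its highest value reached 5.83. A difference is that of log2 values between 2 arrays, counted at 1.5-fold and beside all 11790 genes. No test was possible. Genes in full were, per comparison, the 6 S-phase and G1 genes and the 6 mitotic genes with the greatest size of difference, with Mki67, Cdk1, Ccnb1, Top2a, Mcm2, Pcna, Ccnd1, Cdkn1a and Myc, and up to 4 of each other list and marker list, and Nr0b2; remaining values complete the set or were named after being seen. Members and lists were chosen with earlier results of these data known. Alternatives used limma 3.58.1 in R 4.3.3 and Python 3.11.15. Probe choice, the filter, list medians and a count at 1.5-fold were tested on simulated data, and the other steps were not.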

Additional observations from a re-analysis of the deposited data

How the results depend on the processing

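The medians of S-phase and mitotic genes and the counts at 1.5-fold were recomputed after quantile normalization, median centring, cyclic loess, without the filter, and with the mean of a gene's probes. Medians were also recomputed with a filter on the mean and as list means. A median was taken as moved at a shift of 0.1 log2. With IFN-γ the mitotic median ranged from -0.29 to -0.25 and with SHP siRNA from 0.33 to 0.35 over these. The S-phase median ranged from -0.17 to -0.13 with IFN-γ and from 0.05 to 0.13 with SHP siRNA. With GW the sign turned after median centring, to 0.068 for S-phase genes and 0.027 for mitotic genes. At 1.25-fold, chosen after seeing the data, 8, 7 and 15 of 37 genes passed in the 3 comparisons in place of 0, 1 and 3, and at 2-fold 0 passed with SHP siRNA. The other 57 recomputed medians and counts kept their sign and moved by less than 0.1 (medians) or 1.5 times (counts), and 156 recomputed differences of single genes under the 3 scalings moved by less than 0.1, although near-zero differences of Ccnb1 and Pcna turned sign. A pseudocount was not needed on log2 values. No paired analysis was possible because each group held 1 array, and for the same reason no array could be left out. Signals below 5.83 have an unknown background.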
